A study of Mus musculus with 6 samples.

Results

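The Nr4a, Egr and Zfp36 families were followed through 7 marker-gated cell classes of mouse cranial bone marrow at 3 ages and 2 sites. The genes were Nr4a1, Nr4a2 and Nr4a3, Egr1, Egr2 and Egr3, and Zfp36, Zfp36l1 and Zfp36l2, 9 of the 55450 genes listed and 9 of the 27840 seen in more than 3 cells. They were taken by symbol and were chosen by name with their levels by age in these libraries already known, so every level and ratio is a description that carries no test. For every class and library their UMIs were added up and divided by all UMIs of that class, times 1000000 (CPM), and the share of cells with a UMI was taken. In such sums fewer cells of a subtype and less RNA per cell cannot be told apart.

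Pools of 6 to 8 wild-type C57BL/6 mice, stated to be male, were made at 02m, 12m and 18m, which are 2, 12 and 18 months of age. From each age a CBMA library held sagittal suture plus adjoining parietal bone, and a CBMD library held parietal bone away from the sutures, so there were 6 libraries and 1 for each age and site. Whether the same mice gave both sites was not stated, and sites were not used as replicates of age. Calvaria were cleared of dura and periosteum, minced and digested with collagenases and dispase at body temperature. The suspensions were depleted of red cells and dead cells and captured with the 10x 3' v3 kit. The same protocol is given for all 6 libraries. Whether the pools were prepared together was not stated, so age and preparation cannot be told apart. With 1 library per age and site no p-value is given, a fit with age and site as additive terms was not run, and every interval printed is an exact 95% interval that covers counting error only.

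The Nr4a genes encode orphan nuclear receptors whose activity follows their amount, and Nr4a1 is known for its part in the survival of nonclassical monocytes and as a reporter of antigen receptor signals in T and B cells. Egr genes encode zinc-finger transcription factors of the immediate early class, which are transcribed within minutes of a growth factor, antigen or stress signal. The Zfp36 proteins bind AU-rich elements in the tails of short-lived mRNAs, many of them cytokine mRNAs, and bring in the machinery that removes the poly(A) tail, so they limit the messages that such signals raise.

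The promoters of the Nr4a genes and of Egr2 are shown because they hold letter matches to short elements known to read cAMP and serum signals. RefSeq windows of 250 bases before to 50 bases after a start (GRCm38.p6) were given for 6 of the 9 genes in 10 rows. Both strands were searched for TGACG, the core of the cAMP response element, for the whole element TGACGTCA, which contains that core, for the CArG box of serum response factor, for the EGR site GCGNGGGCG and for the NBRE AAAGGTCA of the Nr4a receptors. Among 32851 windows of this length TGACG or its reverse was found in 20.8%, the whole element in 1.79%, a CArG box in 1.63%, an EGR site in 5.55% and an NBRE in 1.51%. Bases before the start that lie in no exon are given 5′ to 3′ on the strand of the gene, with TGACG or CGTCA, the CArG box and the EGR site in capitals.
Nr4a1, chr15:101266596-101266845, plus strand: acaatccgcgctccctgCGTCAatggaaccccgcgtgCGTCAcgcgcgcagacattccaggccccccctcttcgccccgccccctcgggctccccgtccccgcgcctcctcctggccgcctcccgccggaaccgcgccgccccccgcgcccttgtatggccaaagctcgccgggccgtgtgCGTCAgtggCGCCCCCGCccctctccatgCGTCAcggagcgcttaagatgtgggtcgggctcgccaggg
Nr4a2, chr2:57124004-57124253, minus strand: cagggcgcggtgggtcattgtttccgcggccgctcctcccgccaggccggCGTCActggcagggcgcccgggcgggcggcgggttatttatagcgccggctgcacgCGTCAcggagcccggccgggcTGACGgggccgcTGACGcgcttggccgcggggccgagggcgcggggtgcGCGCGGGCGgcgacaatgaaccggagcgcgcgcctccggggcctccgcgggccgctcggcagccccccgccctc
Nr4a3, chr4:48045055-48045152, plus strand: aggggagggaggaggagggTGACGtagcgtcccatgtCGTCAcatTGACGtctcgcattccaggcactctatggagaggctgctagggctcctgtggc
Egr2, chr10:67537619-67537868, plus strand: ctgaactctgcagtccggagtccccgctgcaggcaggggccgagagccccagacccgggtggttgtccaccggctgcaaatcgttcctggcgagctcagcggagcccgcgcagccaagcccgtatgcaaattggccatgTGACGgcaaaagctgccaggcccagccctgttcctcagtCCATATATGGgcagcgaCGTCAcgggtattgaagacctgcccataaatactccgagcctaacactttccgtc

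The windows of Nr4a1, Nr4a2 and Nr4a3 each held 4 copies of TGACG or its reverse, 1 of those of Nr4a3 in the exon that is not shown, and 76 of the 32851 windows (0.231%) held 4 or more. Of the 5 windows of Egr2, which differ in their start, 3 overlapping ones held the CArG box and 2 copies of TGACG, and the first of these is shown. Another held a CArG box and no TGACG, and the remaining one held no match. The Zfp36 window, not shown, held a CArG box and an EGR site, and that of Zfp36l1 held no match. No window of any of these genes held the whole element TGACGTCA or an NBRE. The Nr4a1 and Egr2 stretches lie in an intron of a longer model of the same gene, and those of Nr4a2 and Nr4a3 lie outside the gene model. A match is a run of letters and was not tested as a binding site. The genes themselves lie on chromosome 15 from 101254269 to 101274795 (Nr4a1), chromosome 2 from 57106830 to 57124003 (Nr4a2), chromosome 4 from 48045153 to 48086447 (Nr4a3), chromosome 10 from 67535475 to 67542188 (Egr2), chromosome 14 from 70077203 to 70082614 (Egr3), chromosome 7 from 28376784 to 28380253 (Zfp36), chromosome 12 from 80107754 to 80113013 (Zfp36l1) and chromosome 17 from 84183931 to 84187947 (Zfp36l2), in a GENCODE annotation of GRCm38. Genes on the opposite strand overlap Zfp36, Zfp36l1 and Zfp36l2 over 1274, 4967 and 2192 bases.

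The 6 libraries held 43420 barcodes and 261183614 UMIs, 16031737 to 66264495 UMIs each, and 37576 cells passed the limits on genes, UMIs and mitochondrial share. Of these 31752 met the markers of exactly 1 class, 5556 met none and 268 met several and were left out. Pairs of libraries shared 7 to 25 barcodes. The 12m libraries went against the stated sex: Xist, the RNA of the inactive X chromosome, stood at 564 and 596 CPM in CBMA and CBMD at 12m and at 0.252 to 0.360 CPM in the other 4 libraries, and at 12m 37.7% and 42.1% of cells held an Xist UMI while 23.3% and 22.3% held a UMI of a Y-linked gene. Results for 12m are therefore also given without the cells that held Xist. This does not separate the sexes. In the other 4 libraries only 43.6% to 56.3% of cells held a Y-linked UMI, so such transcripts are often missed in a cell. The 12m cells left can thus still come from animals of either sex. Check markers that no gate used were high where the names require it, such as Hdc in neutrophils, Lck in T cells, Ebf1 in B cells (and in stromal cells), Plvap in endothelial cells and Mgp in stromal cells. The nonclassical monocyte gate fits its name less well, since it carried Ly6c2 at 1407 CPM against 2480 CPM in classical monocytes and Spn at 108 against 114 CPM, although Itgal (274 against 100 CPM) and Pglyrp1 (192 against 58.0 CPM) were higher in it. Of its cells 537 fell in clusters of classical monocytes and 784 in 1 unnamed cluster. That cluster was led by Cd209a, H2-Ab1, H2-Aa, H2-Eb1 and Cd74, genes known from dendritic cells and antigen presentation. Adgre4 and Ace, 2 markers of the nonclassical gate, were also among its leading genes. Of all marker sets that of nonclassical monocytes scored highest in it. The cells outside the classical clusters are thus mostly those of the Cd209a cluster. The endothelial gate of CBMA at 12m held the basophil transcript Mcpt8 at 1142 CPM against 3.15 to 25.5 CPM in its other libraries, and its part in the endothelial ratios was not tested. Over all libraries 327 cells of the endothelial gate fell in the endothelial cluster and 93 in unnamed clusters. Free RNA was gauged with Retnlg, a neutrophil transcript, which stood in the other classes at 0.152% to 2.21% of its neutrophil level. At that share the neutrophil-derived part would be at most 10.5% of any level above 0 of the 9 genes in the other gated classes. Subsets of these gates, ungated cells and other clusters were not gauged.

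Against 02m the 9 genes were higher in more pairs of gene and class than genes in general, at both sites, but not all members and classes took part. Nr4a1 was higher in all 7 classes, while at 18m in CBMD Zfp36l1 was higher in 2 of 7 and Egr3 in 0 of 6. A gene counted as measured where the 2 libraries compared held 50 UMIs or more of it, and as higher or lower at 1.5-fold. Over the 7 classes together, 38 of 49 measured pairs of gene and class were higher at 12m than at 02m in CBMA, where 31.1% of such pairs were higher over all genes, and 43 of 58 were higher in CBMD, where 26.9% were. At 18m 47 of 59 pairs were higher than at 02m in CBMA against 20.9% over all genes, and 35 of 57 were higher in CBMD against 18.3%. The median log2 ratio of all genes to 02m lay between -0.44 and 0.40 in the 7 classes, and the ratios were not corrected for it.

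**Figure D1:**
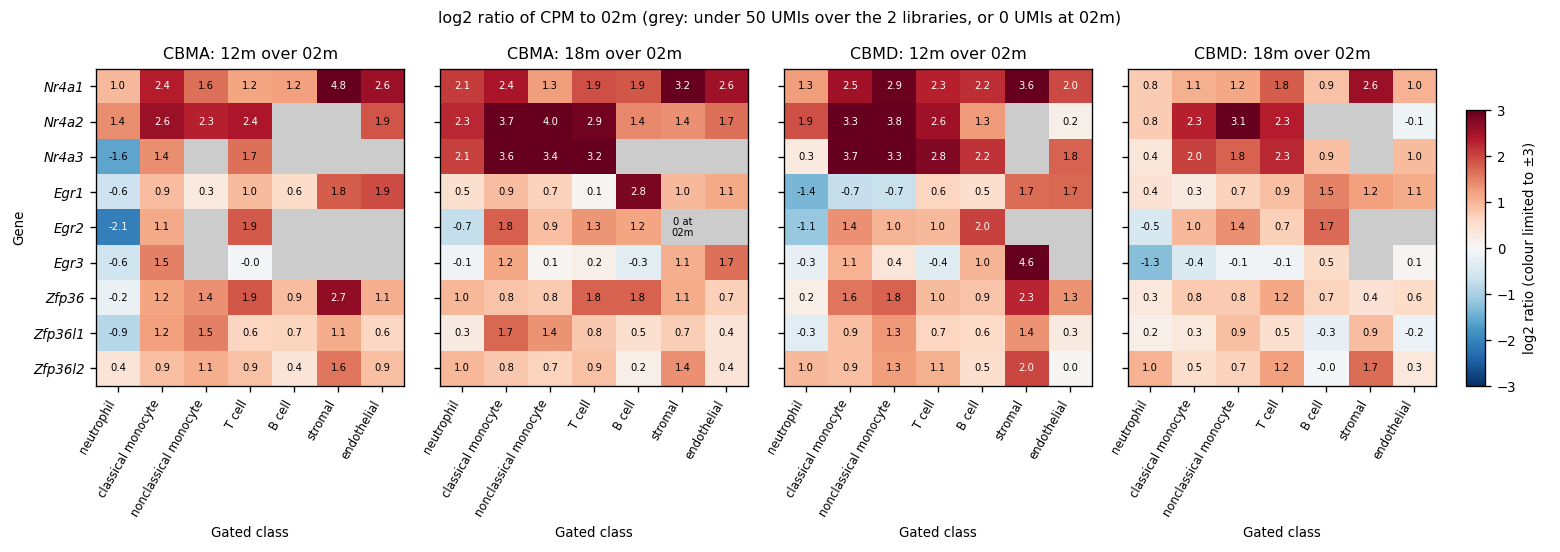
The log2 ratio of CPM to 02m is shown for the 9 genes (rows) in 7 gated classes (columns), in 4 panels by site and age, with red above 0, blue below 0 and grey where fewer than 50 UMIs were counted or 02m had 0 UMIs. The row of Nr4a1 is red in all 28 fields, while the neutrophil column holds blue fields for Egr1, Egr2 and Egr3 at 12m at both sites.

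By class, the counts stood apart from the background to different degrees. In classical monocytes 9 of 9 genes were higher at 12m (31.7% of all genes measured there) and 9 of 9 at 18m (22.9%) in CBMA, and 8 of 9 (24.8%) and 5 of 9 (19.7%) in CBMD. The nonclassical monocyte gate had 5 of 6 higher at 12m (24.6%) and 8 of 9 at 18m (17.9%) in CBMA, and 7 of 9 (25.8%) and 8 of 9 (19.8%) in CBMD. In T cells 8 of 9 were higher at 12m (28.3%) and 7 of 9 at 18m (22%) in CBMA, and 8 of 9 (26.9%) and 7 of 9 (22.5%) in CBMD. Every one of these counts was above its background. The count of the nonclassical gate was smaller in its cells outside the clusters of classical monocytes, where 2 of 5 were higher at 12m (24.6%) and 2 of 7 at 18m (22.2%) in CBMA, and 5 of 7 (32.1%) and 5 of 8 (25.7%) in CBMD.

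B cells had 3 of 5 genes higher at 12m (9.19%) and 5 of 8 at 18m (10.1%) in CBMA, and 7 of 9 (33.2%) and 5 of 8 (14.2%) in CBMD. Outside the plasma cell cluster of that gate 3 of 4 (27.7%) and 4 of 6 (26.4%) were higher in CBMA, and 3 of 8 (30.9%) and 2 of 6 (22.4%) in CBMD, near the background there. Among stromal cells 5 of 5 were higher at 12m (27.9%) and 8 of 8 at 18m (28.7%) in CBMA, and 6 of 6 (26.1%) and 4 of 5 (21.8%) in CBMD. The CBMA gate held 2642131 UMIs at 18m against 409251 at 02m, so a gene could count as measured through 18m alone. Egr2, with 102 UMIs at 18m and 0 at 02m, was counted as higher there. Among the stromal cells with Col1a1 at or over Cxcl12, 4 of 4 (22.1%) and 3 of 6 (22.9%) were higher in CBMA and 3 of 3 (22.5%) and 3 of 3 (12.8%) in CBMD, and among those with more Cxcl12, 2 of 2 (37.7%) and 5 of 5 (41.8%) in CBMA and 4 of 5 (43.5%) and 3 of 5 (37.5%) in CBMD. In endothelial cells 6 of 6 were higher at 12m (36.9%) and 5 of 7 at 18m (27.2%) in CBMA, and 4 of 7 (17.4%) and 3 of 8 (12.3%) in CBMD. In neutrophils at 12m 2 of 9 genes were higher (38.5%) and 5 of 9 lower (9.17%) in CBMA, and 3 of 9 higher (28.7%) and 2 of 9 lower (13.3%) in CBMD, so the share higher was near or below the background. At 18m 5 of 9 were higher in neutrophils in CBMA (16.1%) and 3 of 9 in CBMD (16.3%).

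Between 12m and 18m the sites parted. In CBMA 20 of 58 pairs were higher at 18m than at 12m, against 9.5% over all genes, with 8 of 9 genes higher in neutrophils (13%) and 5 of 8 lower in stromal cells (27.2%). In the B gate of CBMA 5 of 8 were higher at 18m than at 12m (8.72%), but 0 of 6 outside the plasma cluster (11%). In CBMD 22 of 59 pairs were lower at 18m than at 12m, against 22.4%, with 5 of 9 lower in classical monocytes (11%) and 4 of 9 in the nonclassical gate (13.5%). Without the Xist cells, 31 of 42 pairs at 12m were higher than at 02m in CBMA (30.5%) and 38 of 51 in CBMD (24.5%).

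Nr4a1 (Nur77) had the broadest difference with age. In neutrophils it stood at 159, 314 and 678 CPM in CBMA and at 363, 873 and 617 CPM in CBMD at 02m, 12m and 18m. In classical monocytes it stood at 37.4, 192 and 204 CPM in CBMA and at 108, 617 and 225 CPM in CBMD. In both classes the 02m library was the lowest of its site, and CBMD peaked at 12m while CBMA was highest at 18m. The ratio of 18m to 02m was 4.25 (4.07 to 4.44) in CBMA neutrophils and 1.70 (1.64 to 1.76) in CBMD neutrophils.

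**Figure D2:**
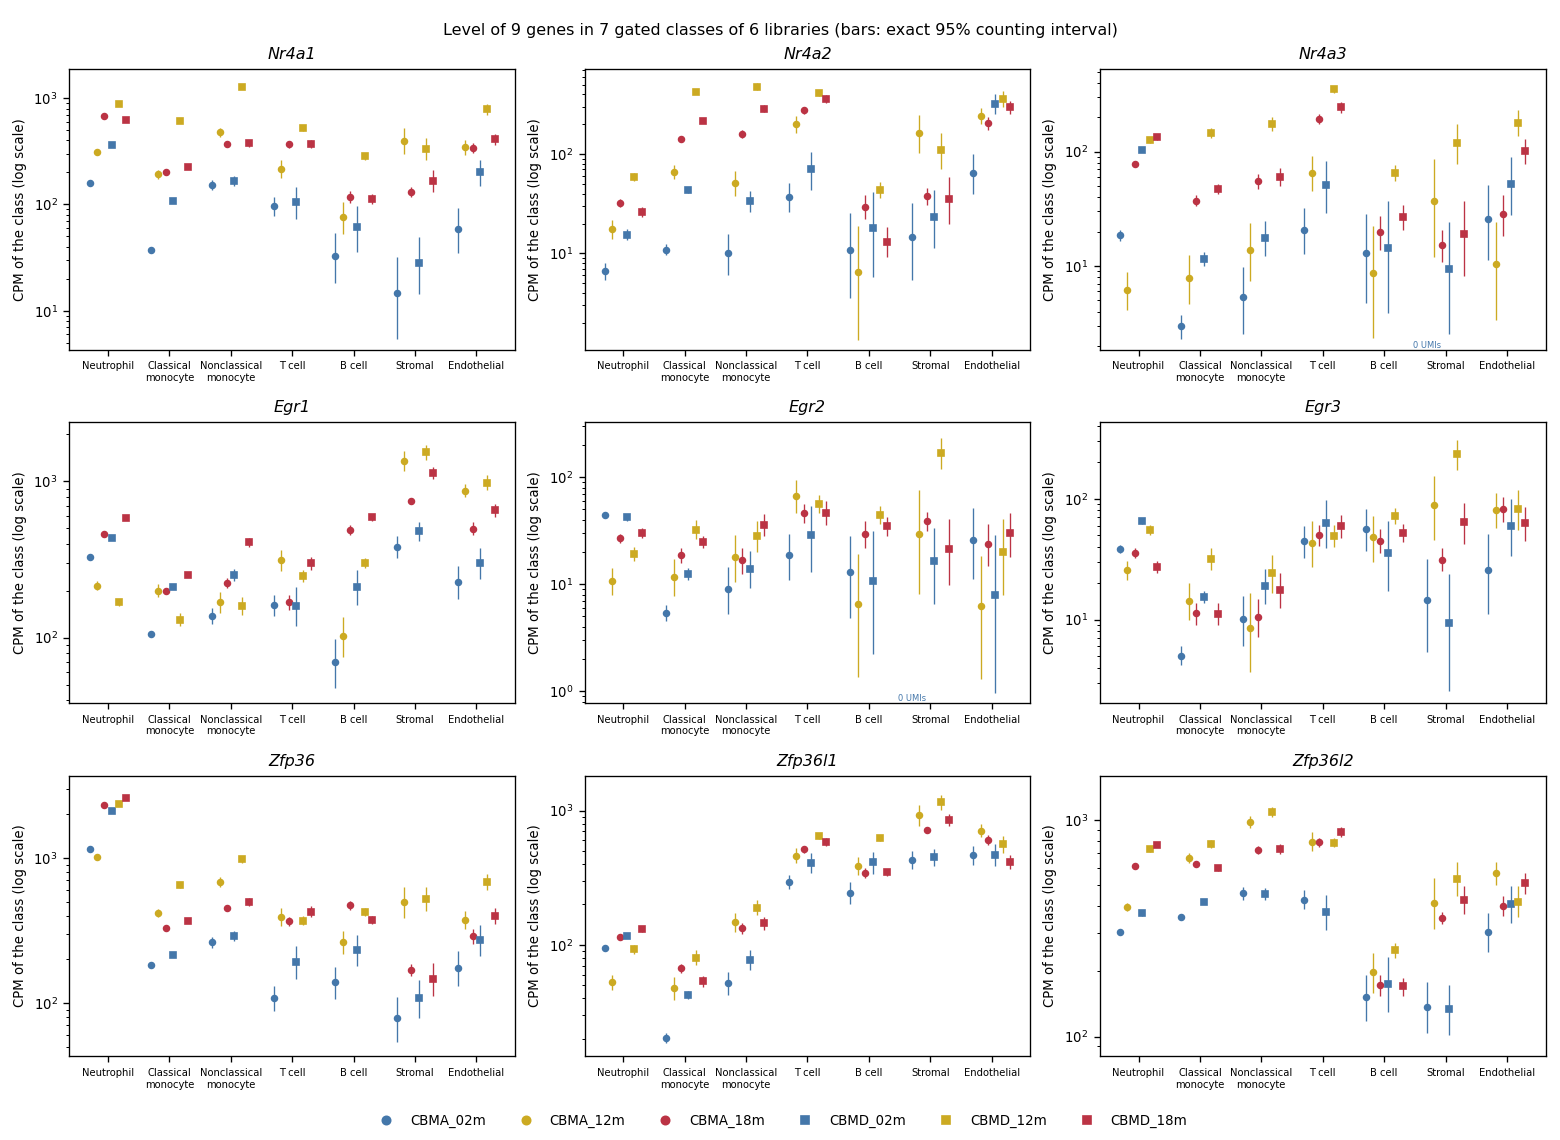
The level of each of the 9 genes, in CPM on a log axis with exact 95% counting intervals, is plotted for 7 gated classes, with circles for CBMA, squares for CBMD, and blue, yellow and red for 02m, 12m and 18m. The 02m points of Nr4a1 lie lowest at their site in every class, Zfp36 is highest in neutrophils in all 6 libraries and Egr1 in stromal cells in all 6.

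Lymphoid cells gave the same order of ages. T cells held Nr4a1 at 96.1, 217 and 367 CPM in CBMA and at 105, 525 and 368 CPM in CBMD, which is 3.82-fold (3.08 to 4.80) and 3.51-fold (2.47 to 5.15) higher at 18m than at 02m. B cells held it at 32.6, 76.1 and 118 CPM in CBMA and at 60.9, 285 and 113 CPM in CBMD. The 12m library exceeded the 18m library in CBMD in both classes and stayed below it in CBMA.

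Endothelial cells, with 34 to 131 cells per library, held Nr4a1 at 58.3, 345 and 342 CPM in CBMA and at 200, 787 and 410 CPM in CBMD. In stromal cells, with 33 to 302 cells, it stood at 14.7, 399 and 130 CPM in CBMA and at 28.1, 334 and 168 CPM in CBMD. The 02m stromal values rest on 6 and 12 UMIs, all 6 of them in cells that the doublet scores would remove, and the ratios of 18m to 02m were 8.88 (4.04 to 24.4) and 5.98 (3.22 to 12.1). In all 7 classes and at both sites Nr4a1 was at least 1.5-fold higher at 12m and at 18m than at 02m, with ratios of 1.97 to 27.2 at 12m and 2.40 to 8.88 at 18m in CBMA, and 2.40 to 11.9 and 1.70 to 5.98 in CBMD. Without the Xist cells the 12m ratio was 2.07 to 15.6 in CBMA and 2.75 to 8.77 in CBMD. The call was lost in CBMA neutrophils at 12m under median-of-ratios scaling (1.42) and in CBMD B cells at 18m under stricter gates (1.04) or without doublets (1.36).

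The make-up of several gates moved with age, and its part in the counts and in the Nr4a1 ratios was not tested. Among clusters of classical monocytes, that led by Hist1h2ae held 716, 28 and 93 cells in CBMA and 509, 7 and 97 in CBMD. The cluster led by Vcan held 729, 130 and 456 cells in CBMA and 825, 144 and 498 in CBMD. The classical monocyte gate was not split by these clusters. In the stromal gate Col1a1, the main collagen of bone, stood at 16450, 2093 and 5101 CPM in CBMA and at 16414, 4167 and 589 CPM in CBMD, while Cxcl12, a chemokine of marrow-supporting stroma, stood at 523, 3831 and 8428 CPM and at 190, 15661 and 23888 CPM. Among stromal cells with Col1a1 at or over Cxcl12, Nr4a1 stood at 5.40, 298 and 63.0 CPM in CBMA over 52, 21 and 147 cells, so 02m was lowest there too, and at 21.8, 284 and 490 CPM in CBMD over 41, 13 and 4 cells. In the nonclassical gate Nr4a1 stood at 153, 478 and 368 CPM in CBMA and at 168, 1288 and 376 CPM in CBMD. Cells of that gate outside the clusters of classical monocytes were 76, 116 and 252 of the gate in CBMA, with 48, 150 and 156 in CBMD, and in them Nr4a1 stood at 399, 567 and 419 CPM and at 375, 1469 and 505 CPM. There the ratio of 18m to 02m was 1.05 (0.884 to 1.26) in CBMA and 1.35 (1.11 to 1.65) in CBMD, below the 2.40 and 2.24 of the whole gate.

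Nr4a2 (Nurr1) was read most in endothelial cells, T cells and monocytes and was low in neutrophils. In T cells it stood at 37.2, 201 and 277 CPM in CBMA and at 69.9, 411 and 356 CPM in CBMD. In classical monocytes it stood at 10.9, 65.6 and 141 CPM in CBMA and at 43.1, 422 and 215 CPM in CBMD. The lowest value at each site was again that of 02m, and the ratio of 18m to 02m in classical monocytes was 12.9 (11.3 to 14.8) in CBMA and 5.00 in CBMD. Endothelial cells of CBMD, at 320, 360 and 295 CPM, did not follow, with a ratio of 0.921 (0.705 to 1.21) at 18m.

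Nr4a3 (Nor1) separated the sites at 12m. In neutrophils it stood at 18.5, 6.18 and 77.3 CPM in CBMA and at 103, 127 and 133 CPM in CBMD, so the CBMA library of 12m was the lowest of all and 0.333-fold (0.221 to 0.486) its 02m value. T cells held it at 20.7, 65.1 and 191 CPM in CBMA and at 50.9, 350 and 244 CPM in CBMD. In classical monocytes it stood at 2.96, 7.82 and 37.2 CPM in CBMA and at 11.5, 146 and 47.4 CPM in CBMD. In these last 2 classes 02m was lowest at both sites. In stromal cells of CBMA at 02m no UMI of Nr4a3 was counted, and 40 UMIs at 18m make it at least 2.07-fold higher there than the floor of 3 counts allows at 02m.

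Egr1 (Krox-24, Zif268) had an opposite course in neutrophils and in the tissue cells at 12m. In neutrophils it stood at 330, 215 and 458 CPM in CBMA and at 433, 168 and 587 CPM in CBMD, lowest at 12m at both sites, with ratios of 12m to 02m of 0.652 (0.610 to 0.697) and 0.388 (0.366 to 0.411). In stromal cells it stood at 381, 1346 and 745 CPM in CBMA and at 478, 1537 and 1129 CPM in CBMD, highest at 12m. Endothelial cells held it at 227, 874 and 498 CPM in CBMA and at 300, 983 and 652 CPM in CBMD, again highest at 12m. Stromal cells were the class with most Egr1 in 6 of 6 libraries, and the ratio of 12m to 02m there was 3.53 in CBMA and 3.22 (2.69 to 3.84) in CBMD. Split by the make-up of the gate, 18m was above 02m in 2 of 4 subsets. Among stromal cells with Col1a1 at or over Cxcl12, Egr1 stood at 389, 1117 and 344 CPM in CBMA over 52, 21 and 147 cells, with a ratio of 18m to 02m of 0.884 (0.731 to 1.08), and at 474, 1589 and 2478 CPM in CBMD over 41, 13 and 4 cells, with a ratio of 5.22 (3.98 to 6.82). Among those with more Cxcl12 it stood at 413, 1953 and 1035 CPM in CBMA over 5, 8 and 118 cells, with a ratio of 2.51 (1.15 to 6.85), and at 1081, 1735 and 1001 CPM in CBMD over 4, 26 and 52 cells, with a ratio of 0.925 (0.617 to 1.45). In each of these subsets 12m was above 02m, and the part of the make-up in the whole-gate levels was not tested.

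**Figure D3:**
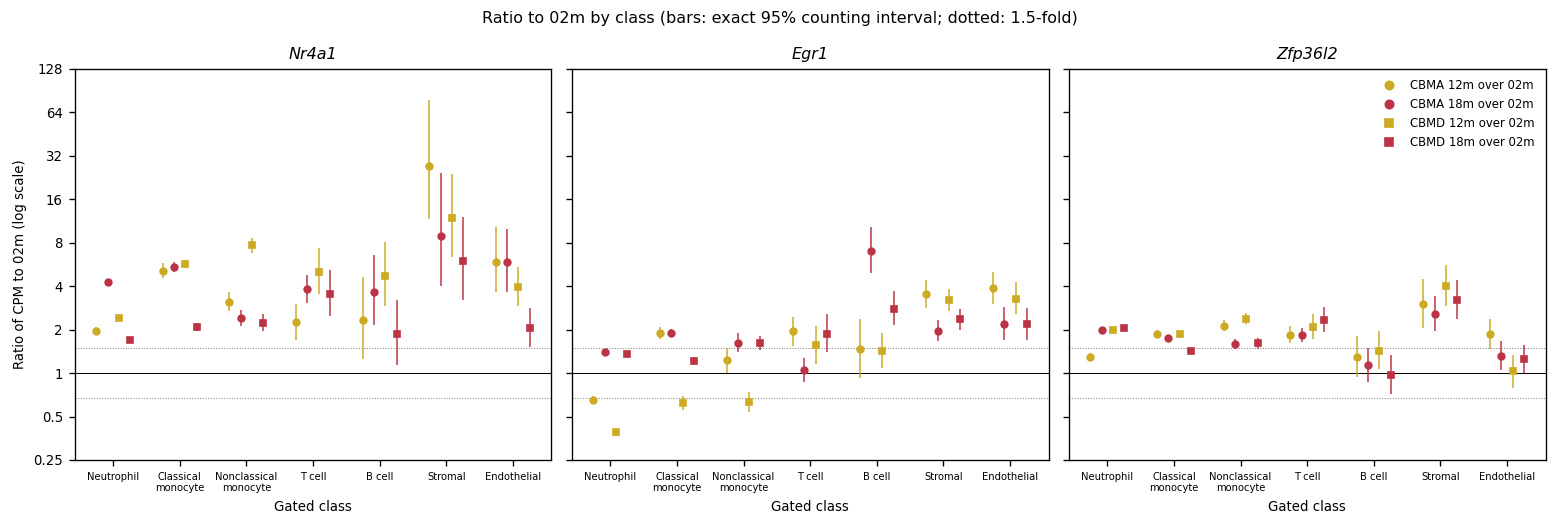
Ratios of CPM to 02m, on a log axis with exact 95% counting intervals, are plotted by class for Nr4a1, Egr1 and Zfp36l2, with circles for CBMA, squares for CBMD, yellow for 12m and red for 18m, and dotted lines at 1.5-fold. All points of Nr4a1 lie above 1.5, those of Egr1 lie below 1 in neutrophils at 12m and above 1.5 in stromal and endothelial cells, and those of Zfp36l2 lie between 0.970 and 4.01.

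In monocytes Egr1 at 12m went in opposite directions at the sites. In classical monocytes it stood at 105, 200 and 199 CPM in CBMA and at 210, 130 and 253 CPM in CBMD, so the 12m ratio was 1.90 (1.72 to 2.10) in CBMA and 0.620 (0.557 to 0.689) in CBMD. T cells held it at 161, 313 and 168 CPM in CBMA and at 159, 248 and 299 CPM in CBMD. Without the Xist cells the 12m ratio in CBMD T cells went from 1.56 to 0.373 (0.239 to 0.578), which reverses its direction, and in CBMD endothelial cells it went from 3.27 to 1.15 (0.783 to 1.68).

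Egr1 in the B gate was high in plasma cells, the antibody-secreting end of the B lineage, at 18m. In the whole gate it stood at 69.5, 102 and 489 CPM in CBMA and at 211, 300 and 589 CPM in CBMD, 7.03-fold (4.94 to 10.3) and 2.79-fold (2.15 to 3.68) higher at 18m than at 02m. Cells of the plasma cluster were 8, 15 and 51 of the gate in CBMA and 11, 42 and 86 in CBMD, and in them Egr1 stood at 37.2, 61.3 and 590 CPM and at 227, 536 and 733 CPM. In the B cells outside that cluster Egr1 stood at 91.9, 202 and 215 CPM in CBMA and at 194, 151 and 191 CPM in CBMD. There the ratio of 18m to 02m was 2.34 in CBMA and 0.980 (0.640 to 1.56) in CBMD, so in CBMD the difference of the whole gate was not seen outside the plasma cluster. Nr4a1 was higher in the same B cells, at 51.4, 217 and 294 CPM in CBMA and at 97.2, 409 and 244 CPM in CBMD.

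Egr2 (Krox-20) in neutrophils was at least 1.5-fold below 02m in both later CBMA libraries and in CBMD at 12m, but not in CBMD at 18m. It stood at 44.4, 10.7 and 26.9 CPM in CBMA and at 42.3, 19.2 and 30.3 CPM in CBMD, with ratios to 02m of 0.241 (0.179 to 0.320) at 12m and 0.607 (0.534 to 0.688) at 18m in CBMA and of 0.454 (0.379 to 0.540) and 0.716 (0.628 to 0.815) in CBMD. In immature neutrophils alone the ratio was 1.11 (0.657 to 1.84) at 18m in CBMA and 1.09 (0.643 to 1.90) at 12m in CBMD, with 1 inside both intervals, so the lower level was not seen there. In classical monocytes it was higher instead, at 5.36, 11.7 and 18.7 CPM in CBMA and at 12.6, 32.4 and 24.8 CPM in CBMD. In stromal cells of CBMA no UMI of Egr2 was counted at 02m. The 102 UMIs at 18m stood at 5.27-fold the level that a floor of 3 counts would give at 02m, which is not the limit of a counting interval.

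Egr3 did not differ detectably in T cells. T cells held it at 44.4, 43.4 and 50.1 CPM in CBMA and at 63.6, 49.2 and 59.4 CPM in CBMD, and all intervals of the ratios between ages hold 1. In neutrophils it stood at 38.3, 25.5 and 35.6 CPM in CBMA and at 65.9, 55.1 and 27.2 CPM in CBMD, with a ratio of 18m to 02m of 0.928 (0.823 to 1.04) in CBMA and 0.414 (0.364 to 0.469) in CBMD. Its highest level was in CBMD stromal cells of 12m, at 233 CPM over 42 cells, against 9.37 CPM at 02m.

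Zfp36 (tristetraprolin) was a neutrophil transcript in each library. Neutrophils held it at 1160, 1009 and 2326 CPM in CBMA and at 2096, 2370 and 2613 CPM in CBMD, above every other class in 6 of 6 libraries. The ratio of 18m to 02m was 2.01 (1.97 to 2.04) in CBMA and 1.25 (1.23 to 1.27) in CBMD, where 02m was already near the older libraries. In T cells it stood at 107, 390 and 367 CPM in CBMA and at 191, 370 and 427 CPM in CBMD, lowest at 02m at both sites. Classical monocytes held it at 182, 415 and 328 CPM in CBMA and at 213, 647 and 368 CPM in CBMD, and stromal cells 78.2, 496 and 169 CPM and 108, 521 and 147 CPM. In the stromal subsets the 18m ratio of Zfp36 was 0.751 (0.480 to 1.21) among the Col1a1 cells of CBMA, 3.99 (0.710 to 158) among the Cxcl12 cells of CBMA and 1.74 (0.460 to 14.7) among the Cxcl12 cells of CBMD, with 1 inside each interval, and the Col1a1 cells of CBMD held 27 UMIs at 02m and 4 at 18m, too few for a ratio.

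Zfp36l1, a family member with roles in lymphocyte development, was read mainly outside the myeloid cells. Stromal cells held it at 428, 925 and 712 CPM in CBMA and at 450, 1148 and 850 CPM in CBMD, and were the highest class in 4 of 6 libraries with endothelial cells first in the other 2. T cells held it at 295, 461 and 513 CPM in CBMA and at 410, 646 and 583 CPM in CBMD, B cells 245, 387 and 344 CPM and 412, 622 and 346 CPM. Classical monocytes were the lowest class in 6 of 6 libraries, at 20.3 to 80.4 CPM. In CBMD the ratio of 18m to 02m was under 1 in B cells (0.840, 0.691 to 1.03) and endothelial cells (0.885, 0.709 to 1.11), with 1 inside both intervals.

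Zfp36l2 was read in lymphoid, myeloid and tissue cells alike. T cells held it at 429, 793 and 788 CPM in CBMA and at 375, 785 and 880 CPM in CBMD, and the nonclassical gate at 458, 977 and 722 CPM and 455, 1084 and 731 CPM, and 1 of these was the highest class in each library. In neutrophils it stood at 305, 396 and 609 CPM in CBMA and at 370, 731 and 761 CPM in CBMD. The ratio of 18m to 02m in neutrophils was 2.00 (1.93 to 2.07) in CBMA and 2.06 (1.99 to 2.13) in CBMD. In B cells it was 1.14 (0.873 to 1.49) and 0.970 (0.721 to 1.33), with no difference detectable at this depth.

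Neutrophil maturity differed between libraries and was therefore held apart. Immature neutrophils, with at least 0.5% of UMIs from the granule genes Camp, Ngp and Ltf, numbered 981, 410 and 286 in CBMA beside 3635, 865 and 3699 mature ones. In CBMD there were 208, 497 and 241 immature and 4412, 1851 and 3549 mature cells. Nr4a1 in immature cells stood at 46.3, 161 and 211 CPM in CBMA and at 136, 611 and 287 CPM in CBMD. In mature cells it stood at 208, 496 and 757 CPM in CBMA and at 381, 997 and 660 CPM in CBMD. In both stages 02m was lowest at each site, and mature cells had more Nr4a1 than immature cells in 6 of 6 libraries. Zfp36 in mature cells stood at 1524, 1835 and 2650 CPM in CBMA and at 2197, 2857 and 2868 CPM in CBMD, so the 0.869 of 12m to 02m in all CBMA neutrophils became 1.20 (1.16 to 1.25) in mature cells. Egr1 at 12m was below 02m in both stages and at both sites, with ratios of 0.768 and 0.821 in immature and mature cells of CBMA and 0.579 and 0.408 in those of CBMD.

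**Figure D4:**
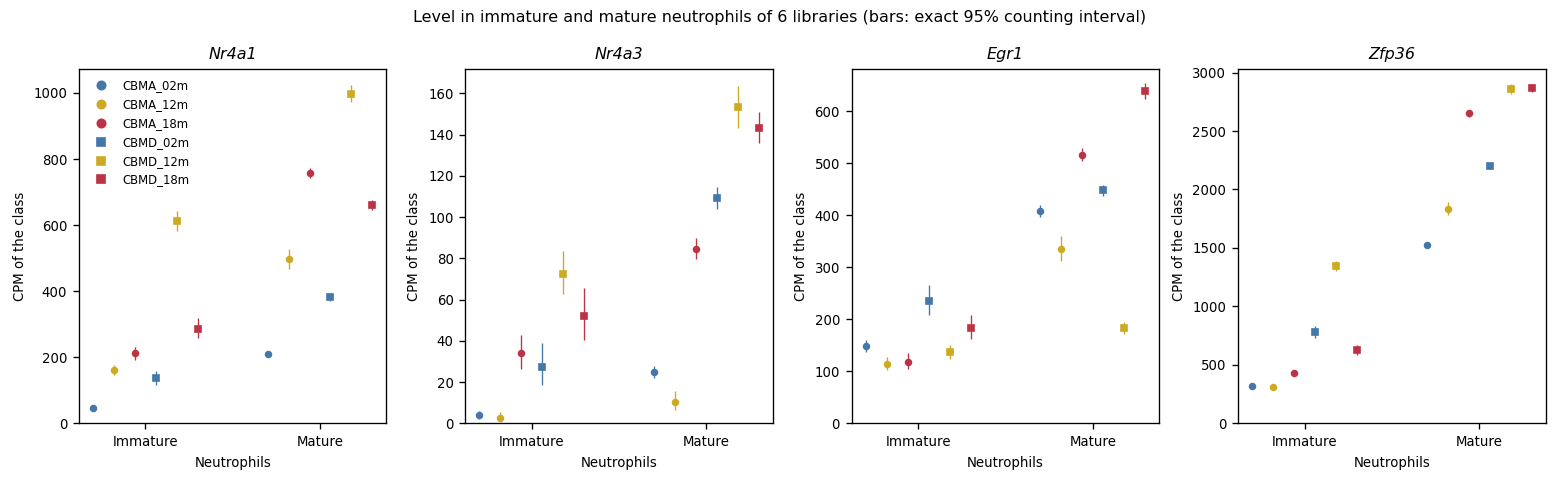
Levels of Nr4a1, Nr4a3, Egr1 and Zfp36, in CPM with exact 95% counting intervals, are plotted for immature and mature neutrophils in the 6 libraries, with circles for CBMA, squares for CBMD, and blue, yellow and red for 02m, 12m and 18m. Mature cells lie higher for Nr4a1, Egr1 and Zfp36 in each library, and the yellow square of Egr1 lies lowest among mature cells.

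Clusters of neutrophils showed the same order for Nr4a1. The gated neutrophils fell mainly into 6 clusters, led by BC100530, Retnlg, Cxcr2, Il1b, Gm26870 and Ltf, and in CBMA Nr4a1 was higher at 12m and at 18m than at 02m in 6 of 6, with 6 cells of the BC100530 cluster at 12m. In CBMD it was higher at 12m in 6 of 6 and at 18m in 5 of 6. The exception was the Gm26870 cluster with 23 and 42 cells. At 18m against 02m in CBMA, Nr4a2, Nr4a3 and Zfp36l2 were higher in 6 of 6 clusters and Zfp36 in 5 of 6. Egr1 was higher in 2 of 6 and Zfp36l1 in 1 of 6, though both were higher in the whole gate. Egr2 and Egr3 were lower in 6 of 6. Zfp36 at 12m in CBMA was higher than at 02m in 5 of 6, against a whole-gate ratio of 0.869. The Il1b cluster, which also led with Ptgs2, took 1.02%, 5.33% and 12.9% of gated neutrophils in CBMA and 2.55%, 39.7% and 13.5% in CBMD, and the Gm26870 cluster took 42.7% in the CBMA library of 12m. The part of these shares in the neutrophil ratios was not tested. In the Il1b cluster Nr4a1 stood at 459, 732 and 1293 CPM in CBMA and at 804, 1283 and 1051 CPM in CBMD, above the level of all neutrophils of the same library in each case. With that cluster left out, the same counts of the 9 genes were higher in neutrophils in all 6 comparisons between ages, and 3 in place of 2 were lower at 12m than at 02m and 1 in place of 2 at 18m than at 12m in CBMD.

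The sites were also set against each other at each age. At 02m 23 of 46 measured pairs of gene and class were at least 1.5-fold higher in CBMD than in CBMA, against 8.88% over all genes, and none was lower. At 12m 34 of 58 were higher (15.8%) and 1 lower (21.2%), and at 18m 10 of 61 were higher (5.47%) and 2 lower (8.65%). Nr4a1 in neutrophils was 2.28-fold (2.18 to 2.39) and 2.78-fold (2.63 to 2.94) higher in CBMD at 02m and 12m and stood at 0.911-fold (0.883 to 0.939) at 18m. The ratio of CBMD to CBMA for Nr4a3 at 12m was 20.6 (14.3 to 30.7) in neutrophils and 18.6 (11.6 to 31.7) in classical monocytes. At 18m Nr4a1 differed by under 1.5-fold in 7 of 7 classes.

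Shares of cells with a UMI were compared at equal depth. After thinning each cell to 1000 UMIs, Nr4a1 was seen in 30.9% and 42.1% of CBMA neutrophils at 12m and 18m, more than at 02m, and in 29.3%, 53.4% and 40.5% of CBMD neutrophils. Before thinning, with median depths of 2406 to 3050 UMIs, the shares were 31.9%, 58.0% and 66.4% and 55.7%, 79.7% and 65.1%. The lowest class at equal depth was stromal cells of 02m, with 1.67% in CBMA and 1.79% in CBMD at median depths of 6513 and 7105 UMIs before thinning, so neutrophil shares lie well above it. Egr1 was seen in 28.3%, 22.0% and 30.6% of thinned CBMA neutrophils and in 29.7%, 13.2% and 35.7% of those of CBMD. Before thinning these shares were 52.1%, 40.2% and 52.7% and 54.6%, 26.9% and 54.0%, so 02m and 18m in CBMD were ordered differently with and without thinning. The lowest class for Egr1 was B cells of CBMA at 02m, with 6.06% at a median of 3913.5 UMIs. Zfp36 was seen in 63.5%, 65.9% and 82.3% of thinned neutrophils in CBMA and in 83.0%, 80.1% and 83.0% in CBMD, and in 87.3%, 85.9% and 95.8% and 96.4%, 93.5% and 95.1% before thinning. The lowest class for Zfp36 was stromal cells of 02m, with 3 of 60 thinned cells in CBMA and 3 of 56 in CBMD.

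**Figure D5:**
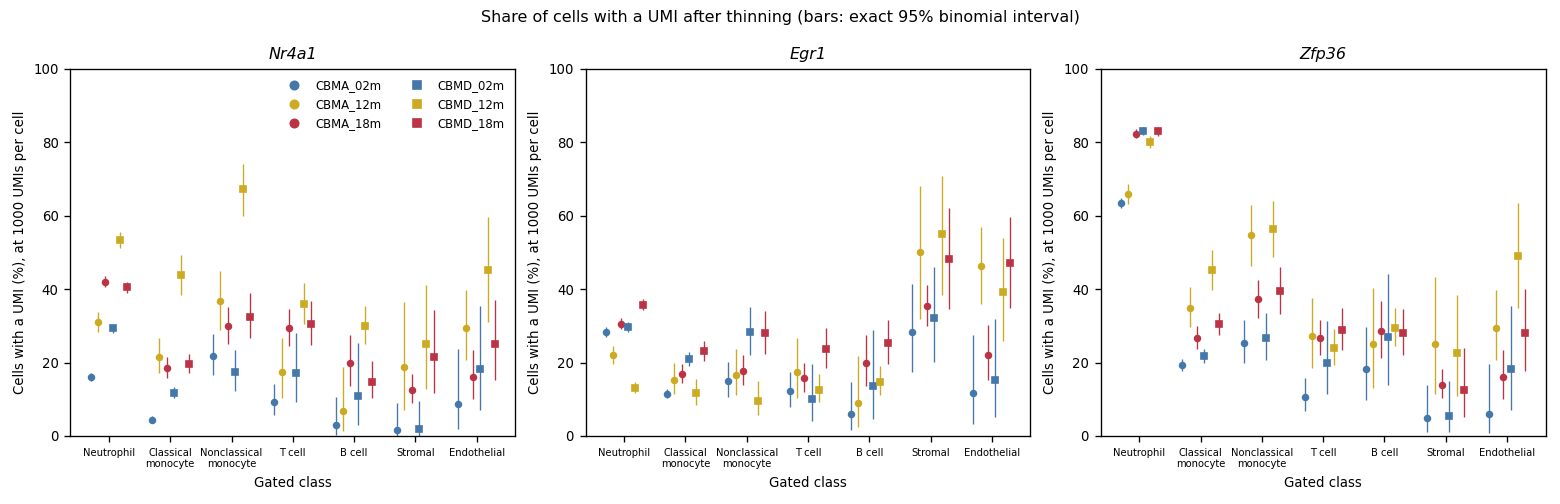
The share of cells with a UMI of Nr4a1, Egr1 and Zfp36 after thinning to 1000 UMIs per cell is plotted for 7 classes and 6 libraries, as percent with exact 95% binomial intervals, with circles for CBMA, squares for CBMD, and blue, yellow and red for 02m, 12m and 18m. Zfp36 is seen in 63.5% to 83.0% of neutrophils, and Nr4a1 in 67.2% of the nonclassical gate of CBMD at 12m, its highest share.

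Within neutrophils the families were read together to different degrees. These shares were taken over the whole gate and not split by maturity. Mature cells held more Nr4a1 and more Zfp36 than immature cells in each library, and the part of maturity in the shares was not tested. Zfp36 was seen in 76.7%, 75.1% and 88.0% of thinned CBMA neutrophils with a UMI of Nr4a1, against 61.0%, 61.8% and 78.2% of those without. In CBMD it was seen in 87.2%, 85.5% and 85.8% with Nr4a1 and in 81.3%, 73.8% and 81.0% without. Nr4a3 was likewise more frequent beside Nr4a1, at 10.9% against 4.97% in CBMA and 15.3% against 9.65% in CBMD at 18m. Egr1 was seen in 31.1% against 30.3% in CBMA and 36.5% against 35.2% in CBMD at 18m, with overlapping intervals, and in 27.7% (23.1 to 32.7) against 19.5% (16.8 to 22.4) and 15.6% (13.6 to 17.9) against 10.3% (8.53 to 12.4) at 12m.

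Other genes of the same pathways were read in all cells from lists picked for their roles. Of 22 measured further immediate early genes, 15 were higher at 18m than at 02m in CBMA, where 33.7% of all genes were, and 12 in CBMD (22.6%), where 2 were lower (14.6%). Their ratios ran from 0.993 for Ier3 and 1.05 for Klf4 to 3.72 for the MAP kinase phosphatase Dusp1 and 5.10 for Atf3 in CBMA, and from 0.514 for Ier3 and 0.651 for Dusp2 to 3.06 for Klf2 and 3.67 for Rhob in CBMD. Among the feedback genes of NF-kB 9 of 10 were higher in CBMA and 4 of 10 in CBMD, with Tnfaip3, which encodes A20, at 5.56 and 2.04 and Nfkbia at 2.17 and 1.01. Known targets of the Zfp36 proteins were higher in 10 of 12 cases in CBMA and 5 of 11 in CBMD, where 2 were lower, among them Il10 at 18.2 and 15.4 and Il6 at 16.6 and 15.5, while Cxcl2 stood at 2.18 and 0.586. The Il10 ratios rest on 8 and 12 UMIs at 02m in CBMA and CBMD, and those of Il6 on 45 and 48. The basophil cluster grew from 30 to 109 cells in CBMA and from 11 to 135 in CBMD between 02m and 18m. Its cells held 81.6% and 91.4% of the Il6 UMIs at 18m. In neutrophils, the class with most Zfp36, 6 of 8 targets were higher at 18m than at 02m in CBMA (16.1%), but in CBMD 1 of 8 was higher (16.3%) and 4 were lower (16.2%). Tnf, the best known target, stood at 0.678 in CBMD and just under the 1.5-fold limit in CBMA.

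Stress genes and partners were counted in the same way. Heat shock genes were higher in all cells in 5 of 10 cases in CBMA (33.7%) and 6 of 10 in CBMD (22.6%), from 0.842 and 1.00 for Hspe1 to 5.51 and 7.59 for Hsph1. In T cells, where 7 of the 9 members were higher at 18m at both sites, 8 of 10 heat shock genes were higher in CBMA (22%) and 9 of 10 in CBMD (22.5%), against 3 and 2 of 10 in neutrophils (16.1% and 16.3%). Other classes and ages did not pair the counts in this way. At 12m against 02m 2 of 10 heat shock genes were higher in CBMA classical monocytes (31.7%), where 9 of 9 members were. In CBMD neutrophils 6 of 10 were higher (28.7%), where 3 of 9 members were. The part of handling stress in the levels of the 9 genes was not tested. Of 15 partners and upstream factors 7 were higher in CBMA (33.7%) and 5 in CBMD (22.6%), among them Crem, a factor that binds cAMP response elements (3.35 and 2.22), and Nab2, a corepressor of Egr proteins that Egr1 itself induces (3.31 and 1.64). Srf, the factor of the CArG box, stood at 1.03 at both sites.

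Genes with the most similar pattern were sought over the 42 sums of class and library among 11636 genes. Nr4a1 was closest to Gm44423 (Pearson's r 0.867), Dusp1 (0.859), Arih1 (0.855), Kdm6b (0.854) and Tle3 (0.843). Zfp36 was closest to the AP-1 gene Junb, then Dusp1 (0.931), Ier5 (0.925), Trib1 (0.902) and Mcl1 (0.901). Dusp1 stood in both sets of 5. Egr1 was closest to Enah (0.789), Ebf3 (0.766), Sorbs2 (0.761), Id4 (0.754) and Atf2 (0.745), and Zfp36l2 to Ywhaz (0.881), Atp2b1 (0.874), Tnfrsf1b (0.857), Gm43336 (0.840) and Mob1a (0.837). By rank (Spearman) 3 of the 5 genes of Nr4a1, 2 of Egr1, 4 of Zfp36 and 3 of Zfp36l2 were also among the first 5. The sums share libraries and classes, so the coefficients are descriptions and carry no p.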

How the data were processed

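Single-cell 3' libraries were made by the study with the 10x v3 kit and sequenced on an Illumina instrument. The authors demultiplexed with bcl2fastq, counted with Cell Ranger 5.0.1 on GRCm38, and deposited raw counts of UMIs (whole numbers, no scaling) for every gene in each called cell. The annotation release is not given in the sources used here. Coordinates come from a GENCODE annotation and promoter sequences from RefSeq (GRCm38.p6).

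Cells were kept at 500 to 5000 genes with more than 500 UMIs and a mitochondrial share below 25%. The neutrophil gate needs S100a8 and S100a9 at 2% of UMIs or more, at least 2 neutrophil markers and fewer than 3 classical monocyte markers. The other gates have S100a8 and S100a9 under 2% and need at least 3 classical markers, Csf1r with at least 2 nonclassical markers, at least 2 T or B markers, or at least 3 endothelial or stromal markers, and both monocyte gates need fewer than 2 macrophage markers. No marker is a member of the families. UMIs were summed per class and library and scaled to CPM. Ratios carry an exact conditional binomial interval from the 2 Poisson sums, levels an exact Poisson and shares an exact Clopper-Pearson interval, all at 95% and for counting error only. The interval calculation was tested on simulated data. Called doublets were kept: Scrublet's own threshold marked 196 cells, so the highest scores at 0.8% per 1000 barcodes (2393 cells) were left out as an alternative. Clusters (2000 variable genes, 10 components, 20 neighbours, resolution 0.8) were named from the same markers. Named are all 9 members, the 5 genes most similar to each of 4 members by log2(CPM + 1), and of each list up to 3 genes with the highest and lowest ratio of 18m to 02m; Tnf, Nfkbia, Srf and the genes that lead clusters were added after their values were seen. Members and lists were chosen with earlier results of these data known. Classes held 33 (stromal) to 4620 (neutrophil) cells per library, so small classes have wide intervals. The work used scanpy 1.11.5 and leidenalg 0.10.2 for clusters, scipy 1.17.1 for intervals, and pandas 2.3.3, numpy 2.4.6 and matplotlib 3.10.9 under Python 3.11.15.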

Additional observations from a re-analysis of the deposited data

Results flagged for a closer look

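In 8 cases a gene was at least 1.5-fold higher in one site and at least 1.5-fold lower in the other between the same ages, and with 1 library per age and site the difference between sites was not tested. Of these, 7 are ratios of 18m to 12m, with the value for CBMA first. Nr4a2 gave 1.83 and 0.447 in neutrophils, 2.15 and 0.510 in classical monocytes, 3.12 in the nonclassical gate (CBMD lay below the lower 1.5-fold limit) and 4.51 and 0.302 in B cells. Nr4a3 gave 4.76 and 0.326 in classical monocytes and 3.98 and 0.347 in the nonclassical gate. Nr4a1 gave 1.55 and 0.396 in B cells. Outside the plasma cluster Nr4a1 in B cells gave 1.36 and 0.598, so the CBMA ratio was under 1.5-fold there, and Nr4a2, which rests on 3 UMIs at 12m in CBMA, had too few UMIs for a ratio in CBMA. The remaining case is Egr1 in classical monocytes, where 12m stood at 1.90 of 02m in CBMA and at 0.620 in CBMD. All 8 involve a 12m library, in which cells with Xist and cells with Y-linked transcripts were mixed.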

How the results depend on the processing

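No paired analysis was possible because no result comes from a test; sites were compared within each age. Under median-of-ratios scaling 2 pairs of gene and class were lower at 18m than at 02m in CBMD, and so under stricter gates, clusters in place of gates and without doublets, where 2 were also lower in CBMA, in place of 1. At 2-fold, lower pairs were 2 (12m to 02m), 0 (18m to 02m) and 4 (18m to 12m) in CBMA and 2 (12m to 02m) and 12 (18m to 12m) in CBMD, and higher pairs in CBMD were 20 (18m to 02m) and 2 (18m to 12m). With clusters, 12 pairs were higher at 18m than at 12m in CBMA. Without the Xist cells 3 of 42 pairs were lower at 12m than at 02m in CBMA and 9 of 58 higher at 18m than at 12m in CBMD. At 2-fold the same pairs were measured as at 1.5-fold. No share over all genes is given beside these counts under other settings. They therefore cannot show whether the 9 genes stood apart from genes in general. Reversed ratios were few. Stricter gates gave 0.903 and clusters 0.905 for Zfp36 in endothelial cells (CBMA, 18m to 02m). Clusters gave 0.974 and 0.841 for Zfp36l1 in classical monocytes (CBMA and CBMD, 12m to 02m), and 0.993 for Egr1 and 0.812 for Zfp36 in B cells (CBMA, 18m to 12m). Leaving out Xist cells gave 0.373 for Egr1 in T cells (CBMD, 12m to 02m) and 1.89 in endothelial cells (CBMD, 18m to 12m). Subsets added after the data were seen gave, for 18m to 02m, 0.980 for Egr1 and 0.789 for Zfp36 in CBMD B cells outside the plasma cluster, 0.925 for Egr1 and 0.839 for Zfp36l1 in CBMD stromal cells with more Cxcl12 than Col1a1, and 0.884 for Egr1 and 0.751 for Zfp36 in the other stromal cells of CBMA. In immature neutrophils Zfp36l1 (CBMA, 12m to 02m) gave 1.06, Egr2 1.11 (CBMA, 18m to 02m), 1.09 (CBMD, 12m to 02m) and 0.702 (CBMD, 18m to 12m), and Zfp36l2 0.932 (CBMA, 18m to 12m). Unthinned, the share of CBMD neutrophils with Egr1 was -0.552 percentage points from 02m to 18m. The cause of these changes was not tested. Nr4a1 reversed under no alternative. It stayed under 1.5-fold in CBMA neutrophils at 12m under median-of-ratios scaling (1.42). In CBMD B cells at 18m it did so under stricter gates (1.04) and without doublets (1.36). Outside the classical clusters it did so in the nonclassical gate at 12m and 18m in CBMA and at 18m in CBMD, but not at 12m in CBMD. The CBMA stromal ratio of Egr2, and that of Nr4a1 without doublets, had no UMI at 02m and gave no value. A minimum of 20 UMIs, totals without the top genes, and a 10% mitochondrial limit kept all 12 counts within 1.5 times. Depth limits stromal, endothelial and B cells most, where the floor of 3 counts is up to 22.2 CPM.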

Other observations

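Cells that fell in no gate or in other clusters carried the same genes. Of the 5556 cells in no gate, 2195 fell in clusters of neutrophils and 775 in those of classical monocytes. The ungated cells are therefore in large part not further cell types. In the 924, 637 and 1137 ungated cells of CBMA Nr4a1 stood at 140, 337 and 421 CPM, and in the 997, 799 and 1062 of CBMD at 315, 696 and 467 CPM, again lowest at 02m at both sites. A cluster of basophils, named by Mcpt8, Prss34 and Cpa3, held Egr1 at 314, 734 and 1221 CPM in CBMA over 30, 67 and 109 cells and at 259, 626 and 1005 CPM in CBMD over 11, 122 and 135 cells. A cluster of macrophages, named by C1qa, C1qb and C1qc, held Egr1 at 145, 639 and 821 CPM in CBMA over 6, 26 and 170 cells and at 190, 618 and 1075 CPM in CBMD over 12, 43 and 97 cells. Both clusters had most Egr1 at 18m, while neutrophils had least at 12m. In the erythroid cluster Nr4a1 ran the other way in CBMD, at 326, 170 and 66.6 CPM over 6, 118 and 98 cells, and stood at 115, 66.6 and 82.7 CPM in CBMA over 53, 18 and 121 cells.

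Within the 12m library of CBMD the cells that held Xist and those that held a Y-linked transcript differed in Egr1. In T cells Egr1 stood at 361 CPM in 177 cells with Xist and no Y-linked UMI and at 47.5 CPM in 74 cells with a Y-linked and no Xist UMI, a ratio of 7.61 (4.86 to 12.6), with median depths of 6152 and 4872 UMIs. The ratio was 2.69 (1.75 to 4.28) in the nonclassical gate, 1.85 (1.43 to 2.42) in classical monocytes and 3.58 (2.39 to 5.56) in endothelial cells, the last over 31 and 9 cells, but 0.855 (0.728 to 1.01) in neutrophils and 0.778 (0.667 to 0.908) in B cells. Nr4a1 in the same T cells stood at 547 and 513 CPM, a ratio of 1.07 (0.913 to 1.25). In CBMA at 12m the T-cell ratio for Egr1 was 1.36 (0.913 to 2.07) over 49 and 19 cells. These groups were made from the data after it was seen, and cells are not replicates, so the ratios describe this library only.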
